A study of Drosophila mojavensis with 95 samples.

Results

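After 18 h of desiccation, flies of a single desert species from 2 Sonoran populations, Organ Pipe National Monument (OPNM, spelled Manument in the labels) and Punta Onah (PO), were compared across 14528 transcripts. The comparison takes the 17 arrays of these populations at 18 h out of 95 in the series, chosen by the population and hour in their titles. OPNM supplied 9 arrays, 5 of flies reared on agria medium and 4 of flies reared on organ pipe medium, and PO supplied 8, with 4 on each medium. The difference is OPNM minus PO on the log2 scale, with equal weight to each diet. All arrays measured total RNA of whole wild-type virgin females of Drosophila mojavensis, labelled with Cy3 on one-colour NimbleGen arrays. The rest of the series covers the same populations at 0 and 9 h and flies from Punta Prieta (PP) and San Quintin (SQ) in Baja California. Of these, 15 arrays hold OPNM and PO flies at 0 h, 16 hold them at 9 h, and 16 hold Baja flies at 18 h (9 PP, 7 SQ), and these are set beside the 18 h difference.

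Drosophila mojavensis breeds in rotting cactus tissue of the Sonoran Desert region, with organ pipe cactus (Stenocereus thurberi) as a main host on the Sonoran mainland and agria (Stenocereus gummosus) as a main host in Baja California. Flies held in dry air lose water through the cuticle, through the spiracles and by excretion, and cuticular hydrocarbons limit the first of these losses. Desiccated flies also go without food, so a desiccation course draws on stored glycogen and lipid as well as on body water. The labels do not say whether replicate arrays came from separate cultures or extractions, and the stock number they give differs from array to array. The p-values therefore measure only the spread between these arrays, and each population stands for itself alone. In RNA of whole bodies, fewer cells of a type and less RNA per cell cannot be told apart. None of the transcript identifiers could be joined to a gene name, so transcripts appear by FlyBase identifier with no function, and the whole-body label was not checked against tissue markers.

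On transcripts chosen from other arrays, all 17 arrays matched their labels for OPNM against PO and for time. The diet label was not checked. On a scale where the OPNM arrays at 0 and 9 h average 1 and the PO arrays at those hours average 0, set by 187 transcripts, the OPNM arrays at 18 h lay between 0.638 and 0.914 and the PO arrays between -0.243 and 0.0839. PP agria arrays at 18 h lay between 0.463 and 0.751 on this scale, so it does not tell OPNM from PP. On a second scale set by 383 transcripts of the Baja arrays, with 0 for 0 h and 1 for 18 h, the OPNM arrays lay between 0.759 and 1.08 and the PO arrays between 0.822 and 1.07. Arrays of the same group differed in spread along 1 axis, called the shared axis here. It is the leading component of the deviations of all 95 arrays from their group means, and high scores go with a wide spread of an array's values over transcripts. The scores themselves are not taken relative to the group, so groups can differ in them. Scores ran between -63.6 and 20.4 in OPNM (mean -12.1, SD 26.9, n = 9) and between -65.5 and -2.15 in PO (mean -25.8, SD 18.8, n = 8). The group means were -9.93 (OPNM on agria), -14.8 (OPNM on organ pipe), -18.4 (PO on agria) and -33.3 (PO on organ pipe). The lowest scores were those of OPNM organ pipe replicate 4 (-63.6) and PO organ pipe replicate 2 (-65.5), which also had the smallest standard deviations over transcripts, 1.81 and 1.80. Results that move with these arrays are given with and without them.

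**Figure D1:**
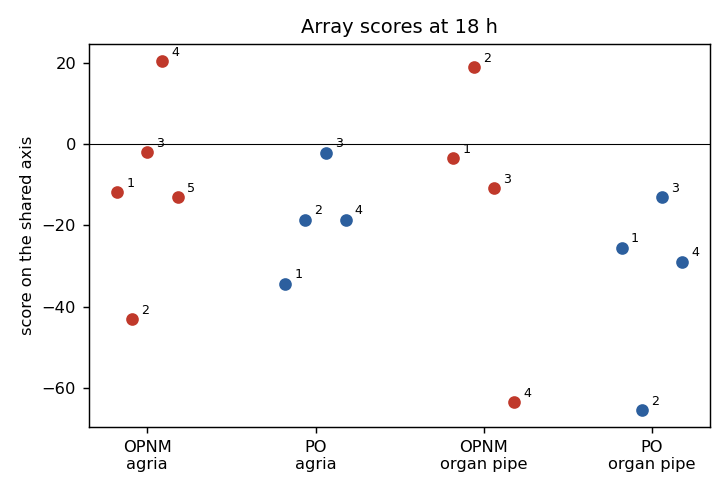
Score of each of the 17 arrays on the shared within-group axis (y axis, no unit) by population and diet (x axis), with the replicate number beside each point. The scores of the populations overlap, and OPNM organ pipe replicate 4 (-63.6) and PO organ pipe replicate 2 (-65.5) lie far below the rest of their groups.

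The populations differed at many transcripts, mostly by small amounts. In limma's fit, 1617 of 14528 transcripts (11.1%) had an adjusted p under 0.05 and are called different here. Of these, 1054 were higher in OPNM (7.25% of transcripts) and 563 lower (3.88%). This split depends on scaling: with each array centred on its median, 923 were higher and 878 lower, and with the shared axis as a covariate 1077 were higher and 993 lower. The median absolute difference over all transcripts was 0.11, while the median 95% confidence interval reached 0.19 to either side. Among called transcripts, 198 (1.36%) differed at least 1.5-fold, 101 higher and 97 lower in OPNM. At least 2-fold differences were called in 8 transcripts that were higher and 22 that were lower in OPNM. Without both low-scoring organ pipe arrays 1517 transcripts were called. Without OPNM organ pipe replicate 4 alone the count was 2547.

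Separation of single arrays was rarer than a call. All 9 OPNM arrays lay above all 8 PO arrays for 91 transcripts (0.626%) and below them for 55 (0.379%). Within the 198 transcripts called with at least a 1.5-fold difference, 61 did not overlap, 28 of them higher and 33 lower in OPNM. Over the 17 arrays, the median share of a transcript's variance was 7.30% for population, 2.46% for diet, 2.32% for their interaction and 82.7% within groups. Each share is a separate median over transcripts. Population took over 50% of the variance in 617 transcripts and diet in 2. The first principal component held 53.8% of the variance, and 85.8% of that component lay within groups. The second, with 12.8% of the variance, separated all 9 OPNM arrays from all 8 PO arrays, and 79.6% of it lay between populations.

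FBtr0172428 had the largest negative difference. On agria its log2 level was 10.49, 10.97, 10.85, 11.04 and 11.12 in the 5 OPNM arrays and 14.21, 13.78, 14.06 and 14.07 in the 4 PO arrays. On organ pipe it was 11.08, 11.35, 10.35 and 9.33 in OPNM and 13.93, 13.93, 13.77 and 14.07 in PO. Every OPNM array lay below every PO array on both diets, and the PO arrays stood within a narrow band. The difference was -3.27 ± 0.24 (SE), which makes it 9.61-fold lower in OPNM (limma, adjusted p = 9.24e-18), with -3.14 on agria and -3.39 on organ pipe. It was not particular to 18 h, since the difference was -3.15 at 0 h and -2.52 at 9 h, again with no overlap of arrays at either time. At 18 h the Baja populations averaged 11.41 (PP) and 10.91 (SQ), on the OPNM side.

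FBtr0167365 had the next largest negative difference among transcripts with the same sign on both diets. Its level on agria was 8.69, 8.65, 8.93, 8.88 and 8.94 in OPNM and 10.93, 10.90, 10.94 and 10.48 in PO. On organ pipe it was 8.42, 8.85, 8.55 and 9.30 in OPNM and 11.00, 10.78, 11.15 and 10.82 in PO. The populations did not overlap at 18 h, nor at 0 or 9 h. The difference was -2.08 ± 0.16 (SE), or 4.22-fold lower in OPNM (limma, adjusted p = 1.85e-17), beside -2.32 at 0 h and -2.12 at 9 h. PP (8.36) and SQ (8.45) again averaged near OPNM at 18 h.

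FBtr0171495 had the largest positive difference. Its level on agria was 9.84, 8.21, 9.41, 10.33 and 10.25 in OPNM and 9.16, 9.09, 8.67 and 8.12 in PO. On organ pipe it was 9.87, 9.83, 10.31 and 9.63 in OPNM and 7.55, 7.29, 8.04 and 7.66 in PO. All 4 organ pipe arrays and 4 of the 5 agria arrays of OPNM lay above every PO array, and agria replicate 2 lay among the PO arrays. The difference was 1.56 ± 0.28 (SE), or 2.96-fold higher in OPNM (limma, adjusted p = 4.14e-05). Taken apart, it was 2.28 on organ pipe (adjusted p = 9.64e-05) and 0.85 on agria (adjusted p = 0.411), but the diets did not differ from each other by the test of that difference (adjusted p = 0.947). The level of this transcript fell with desiccation in both populations. With equal weight to each diet, as in all population means here, it averaged 12.00, 11.12 and 9.76 in OPNM and 11.71, 10.52 and 8.20 in PO at 0, 9 and 18 h. The difference between populations was 0.29 at 0 h (adjusted p = 0.852) and 0.60 at 9 h (adjusted p = 0.37), and its growth by 18 h did not pass the test (1.27, adjusted p = 0.149).

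FBtr0174470 was the next largest positive difference, and it had the opposite sign before desiccation. At 18 h its level on agria was 10.77, 11.40, 8.64, 12.15 and 9.74 in OPNM and 8.17, 8.76, 8.65 and 9.53 in PO. On organ pipe it was 10.92, 10.31, 11.11 and 10.92 in OPNM and 9.63, 8.86, 9.94 and 9.79 in PO. The agria arrays of OPNM were spread widely, and 7 of the 9 OPNM arrays lay above every PO array. The difference was 1.51 ± 0.42 (SE), or 2.85-fold higher in OPNM (limma, adjusted p = 0.0101). Neither diet alone passed the test, with 1.76 on agria (adjusted p = 0.133) and 1.26 on organ pipe (adjusted p = 0.20).

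**Figure D2:**
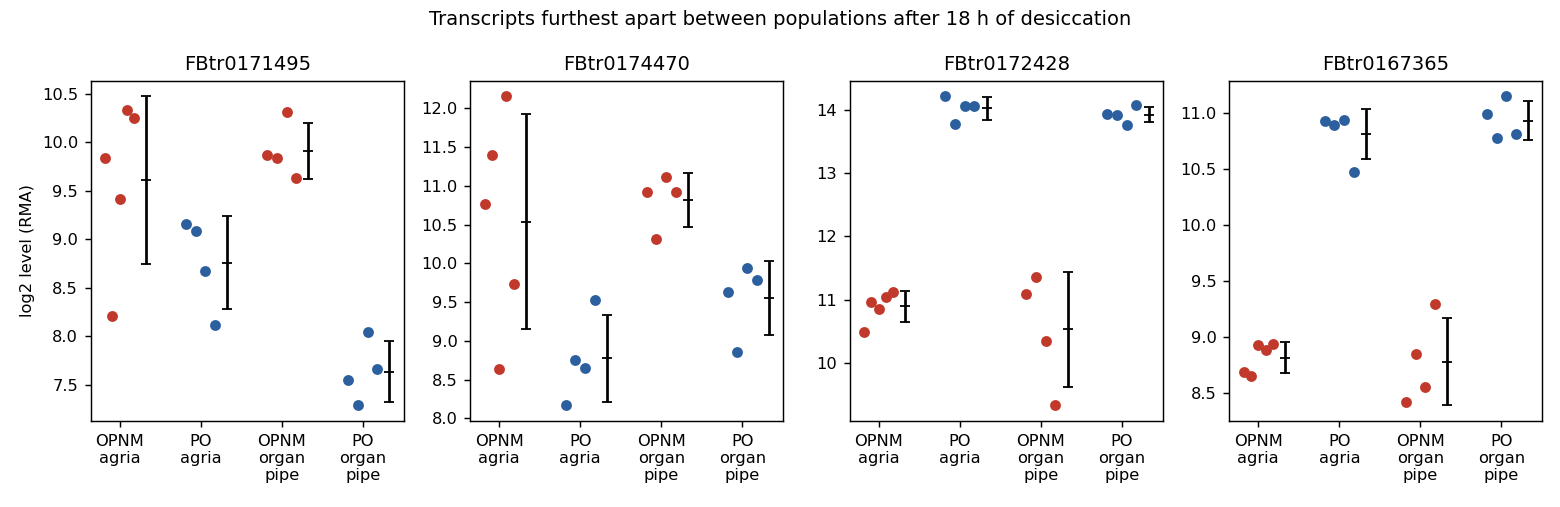
Log2 level (y axis) of the 4 transcripts with the largest differences at 18 h in each of the 17 arrays, OPNM left of PO within each diet (x axis). The bar beside each group gives its mean ± SD. FBtr0172428 and FBtr0167365 do not overlap between populations, whereas 8 and 7 of 9 OPNM arrays lie above all PO arrays for FBtr0171495 and FBtr0174470.

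The next question is how much of the 18 h difference was already present before and midway through desiccation. The 0 and 9 h arrays are separate from those at 18 h. The tests at each time share 1 estimate of spread for each transcript, so calls at different times are not independent. A transcript of low spread is easier to call at every time. Before desiccation, limma called 585 transcripts (4.03%), 208 higher (1.43%) and 377 lower (2.59%) in OPNM, of which 202 (1.39%) differed at least 1.5-fold. With array weights the 0 h split was the other way, with 973 higher and 743 lower. The 0 h count was 414 with agria arrays alone and 155 with organ pipe arrays alone. The 9 h comparison called 349 (2.40%), 146 higher (1.00%) and 203 lower (1.40%), of which 85 (0.585%) differed at least 1.5-fold, and with array weights this split also turned, to 879 higher and 588 lower. Of the 97 transcripts lower at 18 h by at least 1.5-fold, 46 (47.4%) were also called lower at 0 h, 40 at 9 h and 36 at both. Of all transcripts with a negative 18 h difference, 3.69% were called lower at 0 h. The 97 had a median difference of -0.41 at 0 h, -0.38 at 9 h and -0.79 at 18 h, and 83 of them had the same sign at 0 h. Choosing transcripts by their 18 h values enlarges the 18 h median but not those at 0 and 9 h. Of the 22 that were lower at least 2-fold, 16 were called lower at 0 h and 14 at both earlier times, and the median difference was -1.12 before desiccation, -1.08 at 9 h and -1.24 at 18 h.

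Of the 101 transcripts higher in OPNM at 18 h by at least 1.5-fold, 24 (23.8%) were also called higher at 0 h, 24 at 9 h and 17 at both. Among all transcripts with a positive 18 h difference, 2.97% were called higher at 0 h. The 101, also chosen by their 18 h values, had a median difference of 0.23 at 0 h, 0.22 at 9 h and 0.68 at 18 h, and 93 had the same sign at 0 h. No call was made at 0 or 9 h for 67 of the 101 higher and 46 of the 97 lower transcripts, which does not show that their difference was absent then. Of the 198 transcripts, 3 were called in the opposite direction at 0 h, all of them higher at 18 h: FBtr0174470, FBtr0175027 and FBtr0167129, the last of which is named because its values were seen. FBtr0167129 differed by -2.62 at 0 h (limma, adjusted p = 9.8e-08), 0.29 at 9 h (adjusted p = 0.864) and 1.00 at 18 h (adjusted p = 0.0436). Over all 14528 transcripts, which are not independent replicates, the 18 h difference correlated with that at 0 h at r = 0.286 and with that at 9 h at r = 0.328, each from separate arrays, and over the 198 at 0.576 and 0.784. The choice of the 198 leaves out small 18 h differences, which by itself raises r. With the shared axis as a covariate the values over all transcripts were 0.348 and 0.530.

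**Figure D3:**
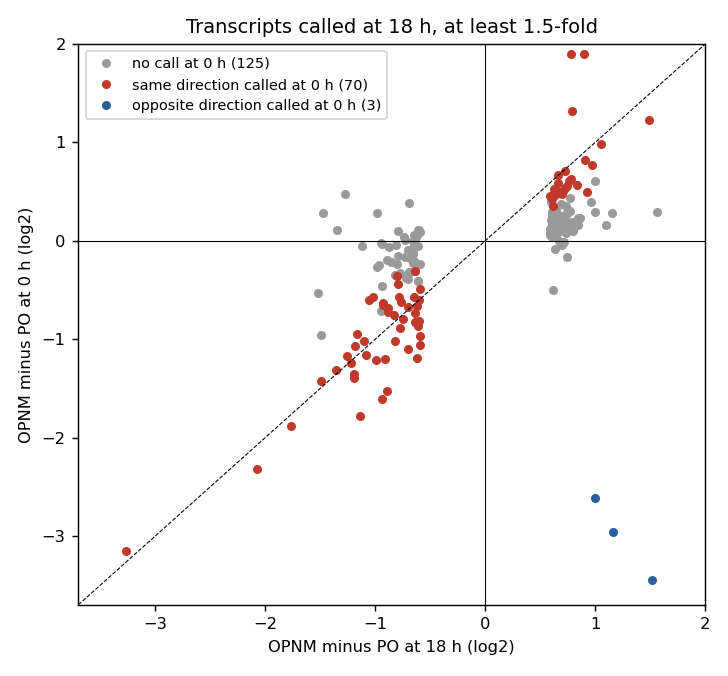
Difference between OPNM and PO at 0 h (y axis) against the difference at 18 h (x axis), both OPNM minus PO in log2 units, for the 198 transcripts called at 18 h with at least a 1.5-fold difference. Of these, 70 were called in the same direction at 0 h and scatter about the dashed line of equal difference, the 3 called in the opposite direction lie at the lower right, and the rest, with no call at 0 h, mostly lie nearer to 0 on the y axis.

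The differences of at least 1.5-fold at 0 h were followed to 18 h. Of 170 transcripts lower in OPNM at 0 h by at least 1.5-fold, 70 were also called lower at 18 h, 96 were not called and 4 were called higher, and the median difference was -0.94 at 0 h, -0.34 at 9 h and -0.35 at 18 h. The 32 higher at 0 h by that much include 23 that were also called higher at 18 h and 0 that were called lower, with medians of 0.73, 0.56 and 0.53. Here the choice by 0 h values enlarges the 0 h medians but not those at 9 and 18 h. The change of the population difference between 0 and 18 h was tested as a population by time interaction, which called 117 transcripts (0.805%). In 93 (0.640%) it was positive, meaning that OPNM gained relative to PO, and in 24 (0.165%) negative. The split was 84 positive to 37 negative after median centring of arrays and 109 to 68 with the shared axis as a covariate.

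The 38 transcripts with a positive interaction of at least 2-fold had a median population difference of -1.92 at 0 h, -0.01 at 9 h and 0.26 at 18 h. All 38 were lower in OPNM at 0 h, 37 of them called, while 5 were called at 18 h. Their choice by the interaction lowers the 0 h median and raises the 18 h median, so the 0 h counts are partly built in. The 9 h arrays have no part in that choice. Between 0 and 18 h, 18 of them rose and 4 fell in OPNM, with a median change of 0.51. In PO 32 fell (median -1.73), as did 32 in PP (median -1.26) and 32 in SQ (median -1.79). Over all 14528 transcripts, 3834 rose and 4717 fell in OPNM, 4679 fell in PO, 2470 in PP and 2716 in SQ. The OPNM and PO changes share arrays with the interaction and are given as its parts, whereas the PP and SQ changes share none with it. Among the 4 PP organ pipe arrays at 0 h, 1 lay at 0.140 on the scale set by OPNM and PO, close to PO, while the highest lay at 0.866; the PP changes include this array, and its part in them was not tested. At 0 h the median population difference of the 38 was -2.37 on agria and -1.32 on organ pipe. Tested in each diet alone, the interaction was called in 33 of the 38 on agria and in 3 on organ pipe.

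On the scale of the Baja time course, the 0 h arrays of OPNM reared on agria lay highest among the 0 h arrays of OPNM and PO. They lay between 0.435 and 0.544, within the range of the Baja 9 h arrays (0.219 to 0.605). That range also held OPNM organ pipe replicates 1, 2 and 4 at 0 h (0.408, 0.303 and 0.225) and PO agria replicate 4 (0.247). OPNM arrays reared on organ pipe lay between 0.107 and 0.408 at 0 h, PO arrays reared on agria between 0.0455 and 0.247 and PO arrays reared on organ pipe between 0.0200 and 0.184. Of the 117 interaction transcripts, 49 are among the 383 that set this scale, as are 29 of the 38. On agria alone 55 transcripts were called for the interaction, and on organ pipe alone 3. Against 9 h in place of 0 h, the interaction called 16 transcripts (0.110%). What part these 0 h agria arrays have in the interaction was not tested beyond these values.

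FBtr0174470 had the largest positive interaction. At 0 h its level was 8.03, 7.29, 8.30 and 7.70 in OPNM on agria and 8.68, 11.57, 12.91 and 12.09 in OPNM on organ pipe. In PO it was 13.12, 12.75, 13.31 and 12.63 on agria and 12.66, 13.41 and 13.20 on organ pipe. All 4 agria arrays of OPNM and the first of its organ pipe arrays were far below PO, and the other 3 organ pipe arrays were near or within the PO range. The population means were 9.57, 8.12 and 10.68 in OPNM and 13.02, 8.14 and 9.16 in PO at 0, 9 and 18 h, so they met at 9 h and then crossed. The interaction was 4.96 ± 0.62 (SE; limma, adjusted p = 3.41e-08). It was 6.88 on agria and 3.04 on organ pipe, where it did not pass the test (adjusted p = 0.333). In Baja the means were 12.20, 9.72 and 8.73 in PP and 13.01, 9.37 and 9.67 in SQ.

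FBtr0162871 and FBtr0175027 had a similar course. FBtr0162871 was at 7.30, 6.88, 7.26 and 7.14 in OPNM on agria at 0 h, against 12.71, 11.48, 12.39 and 11.53 in PO on agria, with no overlap. In organ pipe arrays it was at 7.32, 10.02, 12.00 and 11.27 in OPNM and 11.14, 12.50 and 12.37 in PO, and the populations overlapped. Its difference was -3.37 at 0 h, -0.04 at 9 h and 1.03 at 18 h, the last not past the test (limma, adjusted p = 0.111), and its interaction was 4.40 ± 0.63 (SE; adjusted p = 1.22e-06). FBtr0175027 differed by -2.96 at 0 h, -0.04 at 9 h and 1.16 ± 0.37 (SE) at 18 h (adjusted p = 0.0304), with an interaction of 4.13 ± 0.55 (SE; adjusted p = 2.05e-07). At 18 h it was at 11.16, 11.14, 9.03, 12.26 and 9.54 in OPNM on agria and 8.85, 9.01, 9.07 and 9.95 in PO on agria, and at 10.93, 10.35, 11.09 and 10.55 in OPNM on organ pipe and 9.69, 9.14, 10.02 and 10.39 in PO on organ pipe. In 6 of 9 OPNM arrays it was above every PO array. On organ pipe alone neither interaction passed the test, with 2.84 for FBtr0162871 (adjusted p = 0.40) and 2.48 for FBtr0175027 (adjusted p = 0.397). This 18 h call was lost without both low-scoring organ pipe arrays (adjusted p = 0.0747) and in 7 of the 17 fits that each left out 1 array.

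The 24 transcripts with a negative interaction had median differences of 0.17 at 0 h, 0.005 at 9 h and -0.50 at 18 h. Their choice by the interaction raises the 0 h median and lowers the 18 h median. At 18 h 17 of them were called, and at 0 h 7 were called higher in OPNM. The 0 h median was 0.30 on agria and 0.06 on organ pipe. Tested in each diet alone, the interaction was called in 7 of the 24 on agria and in 0 on organ pipe. Between 0 and 18 h, 18 of the 24 rose in PO, beside 4907 of all 14528 transcripts. FBtr0163649 is the clearest of those named. At 18 h its level was 14.17, 13.00, 13.93, 12.67 and 14.05 in OPNM on agria and 14.71, 14.71, 14.68 and 14.58 in PO on agria. On organ pipe it was 12.21, 14.03, 13.01 and 13.17 in OPNM and 14.78, 14.52, 14.58 and 14.93 in PO. Every PO array lay above every OPNM array, and the PO arrays were much closer together. The population means were 13.32, 13.66 and 13.34 in OPNM and 13.20, 13.68 and 14.69 in PO at 0, 9 and 18 h. The 18 h difference was -1.35 ± 0.19 (SE; limma, adjusted p = 1.96e-07) and the interaction -1.47 ± 0.28 (SE; adjusted p = 0.000556), and the change since 9 h also passed the test (-1.33, adjusted p = 0.0113). The 0 h means combine unlike diets, with a difference of 1.06 on agria (adjusted p = 0.0137) and -0.83 on organ pipe (adjusted p = 0.258). The interaction was -2.17 on agria (adjusted p = 0.000141) and -0.76 on organ pipe, where it did not pass the test (adjusted p = 0.649).

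FBtr0168259 had the most negative interaction among the called transcripts, -1.75 ± 0.38 (SE; limma, adjusted p = 0.00488). It was -3.14 on agria (adjusted p = 5.14e-05) and -0.35 on organ pipe (adjusted p = 0.846). Whether the diets differed in this interaction was not tested. At 18 h its level was 11.08, 10.24, 10.22, 10.20 and 11.25 in OPNM on agria and 13.02, 11.79, 11.33 and 12.42 in PO on agria. On organ pipe it was 9.53, 11.04, 10.40 and 11.33 in OPNM and 12.73, 12.15, 10.55 and 10.90 in PO. The populations were apart on agria and overlapped on organ pipe. Its means were 12.66, 13.42 and 10.59 in OPNM and 12.19, 13.61 and 11.86 in PO at 0, 9 and 18 h. The 18 h difference was -1.28 ± 0.26 (SE; limma, adjusted p = 0.000301). Here too the 0 h means combine unlike diets. On agria at 0 h OPNM averaged 13.25 and PO 11.65 (limma, adjusted p = 0.00472). On organ pipe at 0 h OPNM averaged 12.07 and PO 12.73 (adjusted p = 0.951). The interaction on agria therefore includes a higher 0 h level in OPNM.

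**Figure D4:**
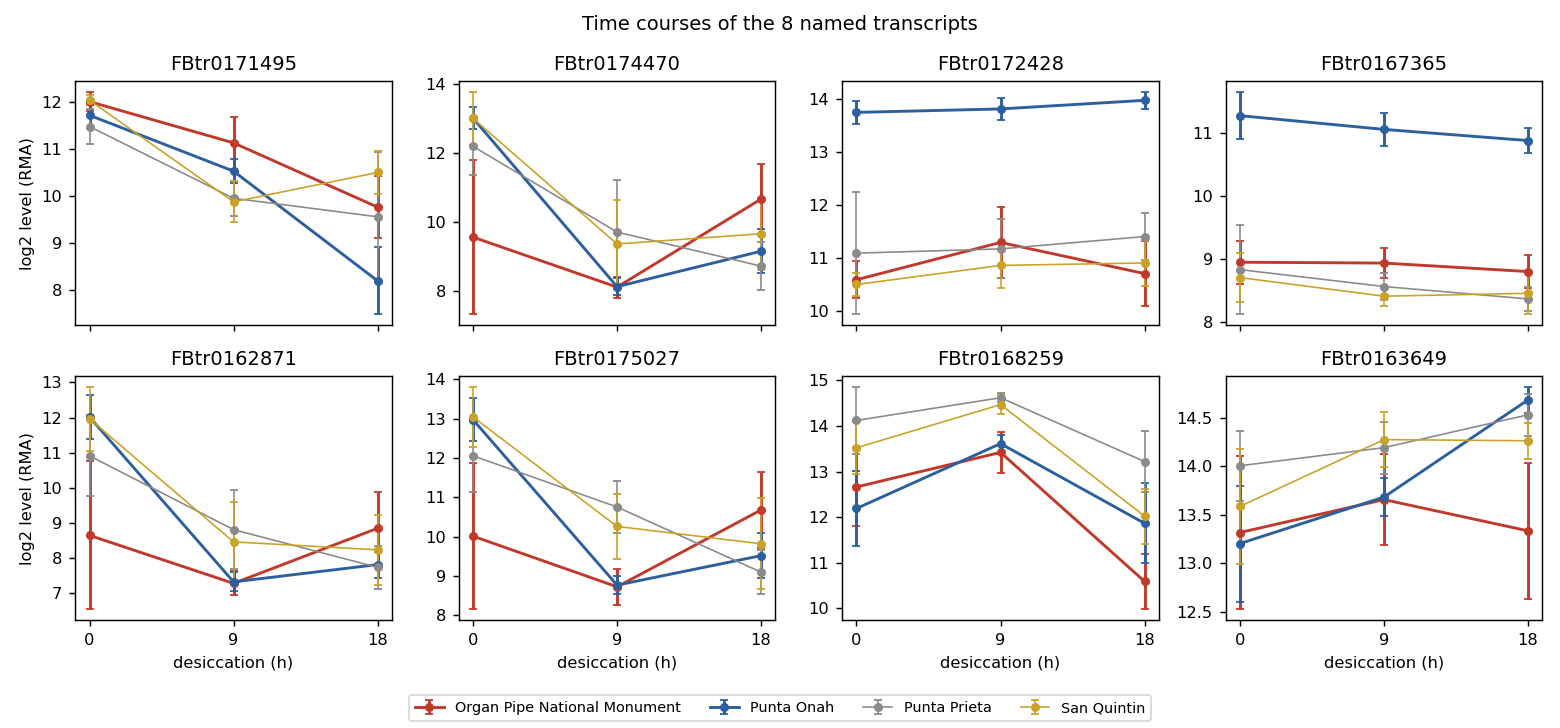
Log2 level (y axis) at 0, 9 and 18 h of desiccation (x axis) for the 8 named transcripts in each of the 4 populations. Points are means with equal weight to each diet, and bars are ± SD over all arrays of the population. FBtr0172428 and FBtr0167365 have PO above the other populations at every time, FBtr0174470, FBtr0162871 and FBtr0175027 start low in OPNM at 0 h, and FBtr0163649 parts between OPNM and PO at 18 h.

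The transcripts called at 18 h but at neither earlier time were set beside the 18 h response of each population, that is, its 18 h level minus its 0 h level. The OPNM and PO responses contain the same 18 h arrays as the population difference, so their relation to it is partly built in. The 67 transcripts higher in OPNM had a median response of 0.17 in OPNM and -0.30 in PO, and 23 rose in OPNM while 33 fell in PO. The 46 lower in OPNM had a median response of 0.30 in OPNM and 0.93 in PO, and 17 rose in OPNM against 39 in PO. Of all 14528 transcripts, 3834 rose in OPNM, while 4907 rose and 4679 fell in PO. In the Baja arrays, which are separate, the 67 had median responses of 0.38 in PP and 0.29 in SQ, and the 46 had 0.06 in both.

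The levels at 18 h were also set beside those in Baja to see which of the populations stood apart. Among the 101 transcripts higher in OPNM by at least 1.5-fold, PP and SQ were both nearer to OPNM in 53 (52.5%) and both nearer to PO in 25 (24.8%). Among the 97 lower transcripts the counts were 56 (57.7%) and 19 (19.6%). Over all 14528 transcripts the shares were 53.0% and 24.4%, so the members lay near the background and these shares are no result about them. OPNM was at least 1.5-fold below all 3 other populations in 12 of the 97 lower transcripts, while PO was that far above all others in 41. OPNM was that far above all others in 14 of the 101 higher transcripts, while PO was below all others in 24. Over all 14528 transcripts, OPNM was that far below all others in 12 and above them in 20, and PO was above them in 48 and below them in 24. A transcript with OPNM or PO that far from all others differs at least 1.5-fold between OPNM and PO by definition. The higher shares in the 97 and the 101 are therefore largely built in by their selection. In the 22 transcripts that were lower in OPNM by at least 2-fold, OPNM was at least 1.5-fold below all others in 8 and PO at least 1.5-fold above all others in 12.

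The last question is whether the population difference at 18 h depended on the rearing cactus. In agria-reared flies 165 transcripts were called (1.14%), 62 higher (0.427%) and 103 lower (0.709%) in OPNM, and 89 of them (0.613%) differed at least 1.5-fold. In flies reared on organ pipe 978 were called (6.73%), 654 higher (4.50%) and 324 lower (2.23%), and 354 of them (2.44%) differed at least 1.5-fold. The splits depend on the processing. On agria the split was 43 higher and 173 lower with each array centred on its median, but 203 higher and 119 lower with array weights. The organ pipe split was 709 higher and 938 lower with the shared axis as a covariate. These unequal counts do not show that the diets differed: the population by diet interaction called 0 of 14528 transcripts (0%) in limma, with a smallest adjusted p of 0.947 and 591 transcripts at an unadjusted p under 0.05. The median 95% confidence interval of that interaction, not adjusted for the number of transcripts, reached 0.39 to either side. Dependences on diet well above this could also go uncalled. The largest interaction, -1.43 in FBtr0171495, was not called. The lack of calls therefore does not show that the diets were alike. The median interval of the population difference reached 0.27 to either side on agria and 0.28 on organ pipe.

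The diets share no arrays, but their tests share 1 estimate of spread for each transcript, so calls on them are not independent. Of the 165 transcripts called on agria, 163 had the same sign on organ pipe and 104 were called there, none in the opposite direction. Their median absolute difference was 0.60 on agria and 0.50 on organ pipe in the agria direction. Of the 978 called on organ pipe, 932 had the same sign on agria and 104 were called there. The median was 0.52 on organ pipe and 0.25 on agria in the organ pipe direction. In both sets the choice enlarges the median of the diet it was made on. Over all transcripts, 10012 of 14528 had the same sign on both diets. The differences on the 2 diets correlated at r = 0.712 across transcripts, which share the shared axis described above and are not independent replicates. Across transcripts, the axis correlated with the difference at r = 0.380 on agria and 0.546 on organ pipe. In a fit of only the arrays compared, 32 transcripts were called on agria and 43 on organ pipe. The organ pipe count also rests on single arrays: it was 2511 without OPNM organ pipe replicate 4, 603 without OPNM organ pipe replicate 2 and 675 without both low-scoring arrays. The agria count was 88 without PO agria replicate 4 and 106 without PO agria replicate 3.

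**Figure D5:**
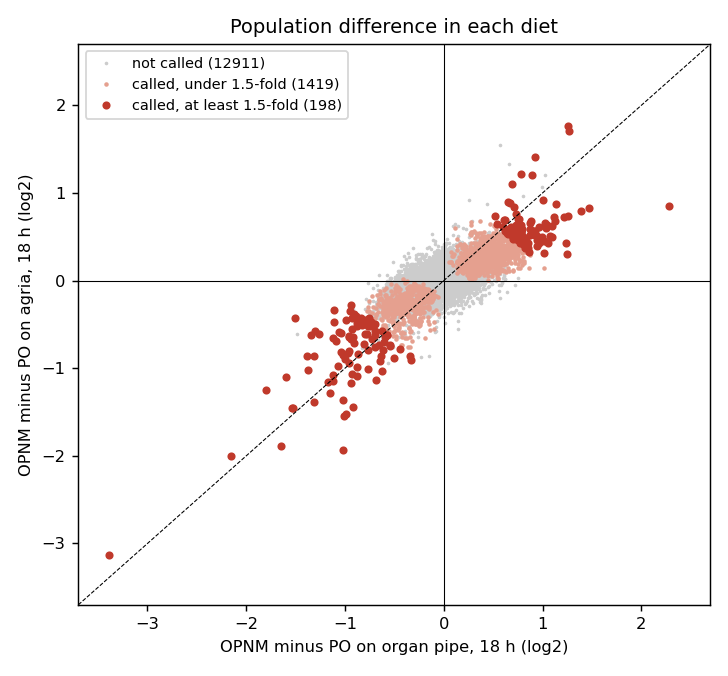
Difference between OPNM and PO at 18 h on agria (y axis) against that on organ pipe (x axis), both OPNM minus PO in log2 units, for 14528 transcripts, with calls over both diets together marked and a dashed line of equal difference. The 198 called transcripts with at least a 1.5-fold difference have the same sign on both diets, and FBtr0172428 lies at the lower left with -3.14 on agria and -3.39 on organ pipe.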

How the data were processed

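The deposited values are log2 levels, 1 for each transcript on each array. The authors made these log2 values with RMA (background correction, quantile normalization and probe summary) per the submitters' processing notes, with no version stated. Values ran from 4.52 to 15.6. No detection calls were used here, and the number of arrays limits the precision. The table has 14528 transcripts, while the series' design text gives 15528, and 0 identifiers occur in the reference table of 15130 genes, so the planned gene lists and tissue markers were not applied.

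All 95 arrays were fitted as 24 group means (population by diet by time) with limma 3.58.1 in R 4.3.3, leaving 71 residual degrees of freedom, without covariates or filters. Differences are contrasts of group means with equal weight to each diet. The p-values are two-sided and adjusted by Benjamini-Hochberg over the 14528 transcripts, with calls at an adjusted p under 0.05. The fit was tested on simulated data. Deviations from group means were decomposed by singular value decomposition to give the shared axis.

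Named transcripts are the 2 largest of each sign among those called, for the 18 h difference (same sign on both diets) and for population by time, skipping any already named. Population by diet named none. The members, lists and tests were chosen with earlier results of these data known.

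Alternatives were a replicate block, a fit of only the arrays compared, median centring, quantile normalization, array weights, the shared axis as a covariate, the dimmest 20% left out, the arrays of a second array order left out, equal weight to arrays and each array left out in turn. That second order is given by a deposited note, which lists 4 arrays. The note's position number and sample disagree for 1 of these, and the sample was used. PO organ pipe replicate 3 at 18 h is among the 4.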

Additional observations from a re-analysis of the deposited data

Results flagged for a closer look

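FBtr0167365 held 1 array far from the others of its group: PO agria replicate 4 at 18 h stood at 10.48, while the other 3 arrays lay between 10.90 and 10.94. It was still above every OPNM array. A gap of this kind was looked for in 36 groups of the named transcripts, of which chance would set apart about 1 in 20, and it was found in 1.

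The population difference itself differed between 18 and 0 h, by limma's interaction test, in 117 transcripts. Among those named, the change of the difference was 4.96 for FBtr0174470, 4.40 for FBtr0162871, 4.13 for FBtr0175027, -1.75 for FBtr0168259 and -1.47 for FBtr0163649. The first 3 start from low levels in the 0 h agria arrays of OPNM.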

How the results depend on the processing

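No named transcript changed direction under any alternative, and the counts stayed within 1.5 times their value under median centring, quantile normalization, leaving out the dimmest transcripts, leaving out the second array order and the replicate block, and the 18 h count also with equal weight to each array. The replicate numbers did not pair the samples: deviations of arrays with the same number correlated between -0.713 and 0.304. With the replicate block the counts were 1466 at 18 h, 147 on agria, 928 on organ pipe, 0 for population by diet, 562 at 0 h, 333 at 9 h and 111 for population by time. In a fit of only the arrays compared, the counts were 916 at 18 h, 32 on agria and 43 on organ pipe. With array weights they were 2770 at 18 h, 322 on agria, 1943 on organ pipe, 1 for population by diet, 1716 at 0 h, 1467 at 9 h and 458 for population by time. With the shared axis as a covariate they were 307 on agria, 1647 on organ pipe, 948 at 0 h, 612 at 9 h and 177 for population by time. Alternatives chosen after seeing the data gave 155 calls at 0 h on organ pipe alone, and for population by time 55 on agria alone, 3 on organ pipe alone and 16 against 9 h. The cause of these shifts was not tested.

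Leaving out 1 array at a time gave 1201 to 2547 calls at 18 h, 88 to 191 on agria, 603 to 2511 on organ pipe, 0 to 1 for population by diet, 439 to 594 at 0 h, 258 to 401 at 9 h and 84 to 143 for population by time. The single population by diet call came without PO organ pipe replicate 2. Of the 198 transcripts called with at least a 1.5-fold difference, 175 were still called in the same direction with only the arrays compared, 187 without the dimmest transcripts, 190 without both low-scoring organ pipe arrays and 194 to 198 in the other fits of all arrays. The dimmest class holds 5 higher and 6 lower transcripts of the 198, which the fit without it did not test. The 18 h call of FBtr0175027 was lost with only the arrays compared (adjusted p = 0.0685) and with array weights (adjusted p = 0.0511), and in 7 of 17 fits without 1 array (adjusted p up to 0.0942, without OPNM agria replicate 4). Also lost was the interaction of FBtr0168259 with only the arrays compared (adjusted p = 0.0859).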

Other observations

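By mean level over all arrays, transcripts were ranked into 5 equal classes. The share called at 18 h was 5.09% in the dimmest class, 12.4% and 16.7% in the next classes, 11.4% in the fourth and 10.1% in the brightest. Of the 101 transcripts higher in OPNM by at least 1.5-fold, 46 lay in the middle class, as did 38 of the 97 lower ones. The median difference was -0.10 in the dimmest class, -0.11 in the next and 0.04 in the middle class.

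At 18 h the OPNM minus PO difference correlated across 14528 transcripts with the SQ minus PP difference at r = 0.567, and at 0.337 with the shared axis as a covariate. These differences share no arrays, but the axis itself correlated with them at 0.515 and 0.700. Transcripts are not independent replicates.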
